A study of Mus musculus with 2 samples.

Results

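Alveolar type 1 (AT1) cells were chosen from 2 droplet single-cell RNA libraries of whole mouse lung by a rule on raw counts of unique molecular identifiers (UMIs, tags that count each captured RNA molecule once). A cell was a member if at most 10% of its UMIs came from mitochondrial (mt-) genes, at least 4 of 7 AT1 genes (Ager, Hopx, Akap5, Rtkn2, Clic5, Igfbp2 and Aqp5) had a UMI, Ptprc and Pecam1 had none, and the AT2 genes Lamp3, Slc34a2, Abca3 and Etv5 summed to at most 3 UMIs. The rule found 75 cells among 14971 with at most 10% mitochondrial UMIs, 33 of 8026 from control lung and 42 of 6945 from fibrosis lung. Both libraries came from male C57Bl/6J mice aged 3 months, harvested 14 days after particles were given into the trachea. The labels name TiO2 and crocidolite asbestos, each at 100 µg, for both animals and do not say which animal received which, so the groups are called control and fibrosis, as labelled. Each group is 1 mouse and 1 library. No difference between the groups could therefore be tested, and every interval below is an exact 95% interval that covers the counting of UMIs or cells only.

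AT1 cells are the large, thin cells that cover most of the gas-exchange surface of the alveolus, and they share a basement membrane with the capillary endothelium. They are marked by Ager (the receptor for advanced glycation end products), the homeodomain protein Hopx, the water channel Aqp5 and the membrane glycoprotein Pdpn. AT2 cells, which make surfactant, can divide and give rise to AT1 cells after injury. AT1 cells are fragile and are usually few in digested lung.

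Of the 75 members, 53 lay in 1 cluster led by AT1 genes. The rule itself used Igfbp2, Rtkn2, Ager, Hopx and Akap5 among these leading genes, so the cluster does not test the label. Joint clustering of both libraries gave 38 clusters, and 1 of them, led by Igfbp2, Rtkn2, Spock2, Ager, Vegfa, Col4a3, Hopx, Krt7, Akap5 and Pxdc1, held 25 control and 28 fibrosis members. It is called the AT1 cluster below. Another 15 members (6 control, 9 fibrosis) lay in 2 airway clusters. The first (1 control and 3 fibrosis members) had the club cell genes Scgb3a1, Scgb3a2 and Scgb1a1 among its 10 leading genes. The haemoglobin genes Hba-a1, Hba-a2 and Hbb-bs were also among them. The second (5 and 6 members) was led by ciliated cell genes such as Ccdc153 and Foxj1. Scgb1a1 had a median of 7395 UMIs per control and 7292 per fibrosis airway member, so a cluster's name need not hold for each member in it. These 15 cells had no UMI of Akap5 or Rtkn2. The airway members had 16828 UMIs in the median control cell and 22509 in the median fibrosis cell, against 3984 and 3538 in the AT1 cluster. They held 48.8% of all control member UMIs and 59.3% of all fibrosis member UMIs, and so weigh heavily in any sum over the members. A further 4 fibrosis members lay in AT2 clusters, and 2 control members and 1 fibrosis member in other clusters.

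The count of rule genes, which the rule itself used, differed among these kinds of cell. All 7 genes were detected in 22 control and 25 fibrosis cells, all of them in the AT1 cluster. At the edge of the rule, exactly 4 genes were detected in 8 control and 7 fibrosis cells, of which 6 and 7 lay in airway clusters. Exactly 5 were detected in 0 control and 6 fibrosis cells, 2 of them in airway and 4 in AT2 clusters, and exactly 6 in 3 control and 4 fibrosis cells, of which 3 and 3 lay in the AT1 cluster. Just outside it, 11 control and 16 fibrosis cells had exactly 3 of the genes and passed the other conditions, with a median of 1 Ager UMI in either library. On the other side, 50 control and 93 fibrosis cells had at least 4 AT1 genes but more than 3 AT2 UMIs, and 30 and 68 of these lay in AT2 clusters. The AT1 cluster also held 7 control and 5 fibrosis cells that were not members. Among them, 3 control and 2 fibrosis cells had more than 3 AT2 UMIs, and 5 and 3 had a UMI of Ptprc or Pecam1. A cell could fail on both counts. None of the members carried any of the 89 barcodes found in both libraries, and 1 fibrosis member was among the cells with the highest doublet scores.

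**Figure D1:**
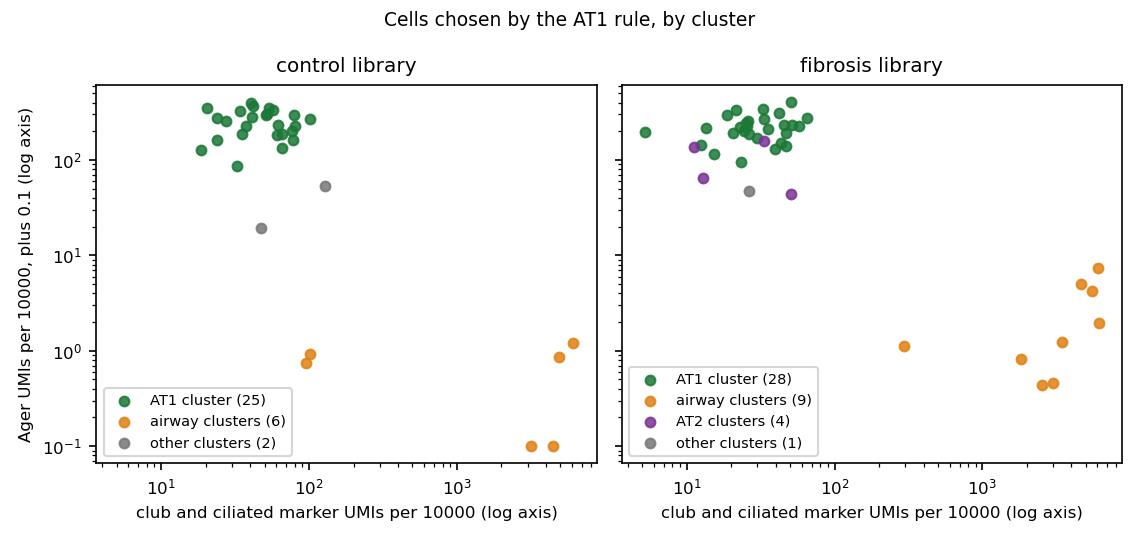
Each point is 1 member cell, placed by its club and ciliated marker UMIs per 10000 UMIs (x, log axis) and its Ager UMIs per 10000 UMIs plus 0.1 (y, log axis), with colour for its cluster. The 25 control and 28 fibrosis cells of the AT1 cluster lie at the top left, between 86.3 and 408 Ager UMIs per 10000, and the 15 airway members lie far below them.

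Because of this mixture, values below are for the 53 members in the AT1 cluster unless another set of cells is named. The median over all 75 members is given for each gene list, and single genes can differ between the 2 sets in sign or size where only 1 value is given. Cluster membership was itself read from the expression of these cells, so it describes the cells and tests nothing.

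All members of the rule, airway cells included, were 0.411% of kept control cells (0.283 to 0.577%) and 0.605% of kept fibrosis cells (0.436 to 0.817%). The AT1 cluster members alone were 0.311% (0.202 to 0.459%) and 0.403% (0.268 to 0.582%). In both cases the intervals of the libraries overlap. As a share of AT1 plus AT2 cells, all members were 33 of 943 (3.50%, 2.42 to 4.88%) and 42 of 1509 (2.78%, 2.01 to 3.74%). The order of the libraries thus turned with the denominator. With the AT1 cluster members alone the shares were 2.67% (1.74 to 3.92%) and 1.87% (1.25 to 2.70%). AT2 cells themselves numbered 910 (control) and 1467 (fibrosis).

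The 7 rule genes describe the members and support nothing further. In the AT1 cluster, Ager ranged from 86.3 to 395 UMIs per 10000 in control cells, with a median of 255, and from 94.8 to 408 in fibrosis cells, with a median of 217. The cells of the 2 libraries overlapped over nearly this whole range. Summed over cells and scaled to counts per 1000000 UMIs (CPM), Ager stood at 26532 CPM (25591 to 27499.7) in control and 22335 (21485 to 23209) in fibrosis, a log2 ratio of fibrosis over control of -0.25 (-0.32 to -0.17). In all other kept cells the Ager ratio was 0.85 (0.81 to 0.89), and in AT2 cells 0.25 (0.20 to 0.30). Hopx was also lower in fibrosis AT1 cells, with a median of 15.8 UMIs per 10000 against 23.9 in control and a log2 ratio of -0.47 (-0.73 to -0.21). Igfbp2, a secreted binding protein of insulin-like growth factors, was higher, with a median of 27.0 against 16.6 and a log2 ratio of 0.64 (0.41 to 0.87). Clic5, an intracellular chloride channel protein, had a ratio of 0.37 (0.11 to 0.64). The intervals of Aqp5 (0.02, -0.18 to 0.22), Akap5 (0.20, -0.22 to 0.62) and Rtkn2 (-0.33, -0.68 to 0.01) held 0. None of the 7 genes differed by 2-fold.

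Detection of Ager alone did not separate AT1 from AT2 cells, although its level differed. It had a UMI in 836 of 910 control AT2 cells (91.9%) and in 94.6% of fibrosis AT2 cells, at 870.3 and 1035 CPM. The median AT2 cell had 4 Ager UMIs in control (highest 26) and 5 in fibrosis (highest 46), against 101 and 78.5 in the AT1 cluster. In T cells, which should lack it, it had a UMI in 5.92% and 9.31% of cells at median depths of 2790.0 and 2772 UMIs, against 5739 and 5405 in AT2 cells. Rtkn2 and Igfbp2 were far more restricted. Rtkn2 stood at 1382 and 1097 CPM in AT1 cells against 1.34 and 1.65 in AT2 cells, and Igfbp2 at 2249 and 3498 against 2.35 and 1.54. AT1 members needed at least 4 of the rule genes and AT2 cells had fewer than 4. The AT1 and AT2 levels of these genes therefore differ partly by the choice of cells.

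**Figure D2:**
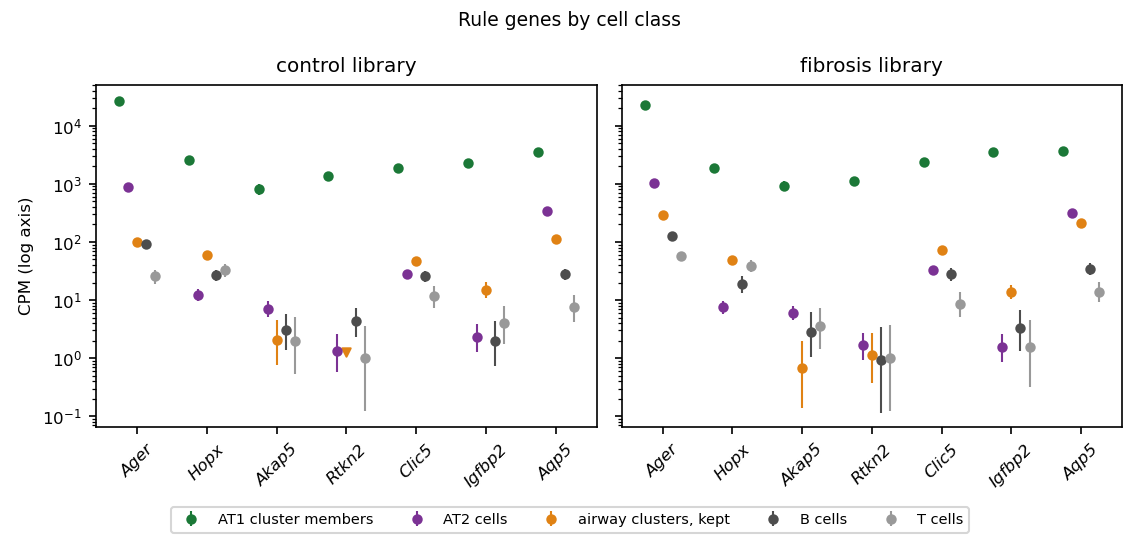
CPM (log axis) of the 7 rule genes in AT1 cluster members, AT2 cells, all kept cells of the airway clusters, B cells and T cells, in the control (left) and fibrosis (right) libraries, with 95% counting intervals; a triangle marks the upper limit where a gene had no UMI. Ager in AT2 cells (870.3 and 1035) lies well above its level in T cells (25.4 and 56.3), whereas Rtkn2 in AT2 cells (1.34 and 1.65) lies near it (0.997 and 1.02).

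Genes that the rule did not use separated AT1 from AT2 cells in the same way in both libraries. The genes were ordered by the smaller of the lower interval bounds in the 2 libraries. Bdnf, a neurotrophin, came first in this order, with a log2 ratio of AT1 over AT2 of 10.34 (8.74 to 13.73) in control and 10.08 (8.65 to 12.61) in fibrosis, from 61 and 48 UMIs in AT1 cells against 2 and 3 in all AT2 cells. Spock2, a matrix proteoglycan, came next with 9.11 (8.20 to 10.35) and 9.91 (9.12 to 10.95), and Pdpn with 8.75 (7.90 to 9.85) and 8.45 (7.88 to 9.10). Wnt7a, a secreted Wnt ligand, had 15 and 12 UMIs in AT1 cells and none in AT2 cells of either library, and Lrtm2 had 8 and 9 with none in AT2 cells, so no ratio is given for these 2 genes. Scel (9.18 and 8.46), Gpm6a (8.85 and 9.09), Fbln5 (8.39 and 7.42), Cav1, the main structural protein of caveolae (7.95 and 7.11), Pxdc1 (7.77 and 7.25) and Pmp22 (7.46 and 7.63) were among the other leading genes. Since AT1 and AT2 cells were gated on different genes of the same profiles, these ratios are a description.

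Between the libraries, 329 of the 3699 genes with at least 10 UMIs in the AT1 cluster members were at least 2-fold higher in fibrosis (8.89%) and 268 at least 2-fold lower (7.25%). Over all 75 members the counts were 471 (7.30%) and 517 (8.01%) of 6454 genes. The median log2 ratio of all genes was -0.05 in the AT1 cluster and -0.13 over all members. These shares are the background for the gene groups that follow.

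Basement membrane genes were, on the median, higher in the fibrosis AT1 cells. Of 24 matrix genes listed, 17 had at least 10 UMIs in the AT1 cluster. Their median log2 ratio was 0.53, with 1 gene at least 2-fold higher (Col4a5) and 0 at least 2-fold lower. Over all 75 members the median was 0.12, and in AT2 cells it was -0.01. In all other kept cells the median of the same list was 0.63, so a higher level was not limited to AT1 cells. The direction of the list depended on the cells counted: its median was -0.22 when members needed at least 5 of the 7 rule genes, a set that drops 13 airway members but keeps 2 very deep ones, and -0.42 after the ratio in all other kept cells was subtracted over all members.

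The type IV collagen chains, which form the sheet of the basement membrane, were the clearest of these. Col4a1 was detected in 15 of 25 control cells and 23 of 28 fibrosis cells, with medians of 1.71 and 5.69 UMIs per 10000 and highest cells at 16.2 and 20.2. Its sum went from 35 to 72 UMIs, a log2 ratio of 0.98 (0.39 to 1.62). Col4a2 was detected in 22 cells of each library, with medians of 3.77 and 7.98 UMIs per 10000, and had a ratio of 0.86 (0.36 to 1.39) from 51 and 96 UMIs. For both genes the cells of the libraries overlapped, and the fibrosis cells reached higher. Over all members the ratios were 0.41 (-0.15 to 1.00) for Col4a1 and 0.41 (-0.07 to 0.92) for Col4a2. In AT2 cells Col4a1 had a ratio of 0.33 (0.17 to 0.50) and Col4a2 of -0.02 (-0.22 to 0.18).

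Col4a1 and Col4a2 lie head to head on chromosome 8 (GRCm38, chr8:11198423-11312826 on the minus strand and chr8:11312805-11449287 on the plus strand), and start within the same short stretch. The RefSeq promoter windows of both genes (GRCm38.p6, from 250 bases before to 50 after the start) are shown because the genes share this region and had similar ratios. Each is written 5′ to 3′ on its gene's strand, and the 78 bases in capitals are the stretch common to both windows, read on opposite strands.
Col4a2, chr8:11312555-11312854, plus strand: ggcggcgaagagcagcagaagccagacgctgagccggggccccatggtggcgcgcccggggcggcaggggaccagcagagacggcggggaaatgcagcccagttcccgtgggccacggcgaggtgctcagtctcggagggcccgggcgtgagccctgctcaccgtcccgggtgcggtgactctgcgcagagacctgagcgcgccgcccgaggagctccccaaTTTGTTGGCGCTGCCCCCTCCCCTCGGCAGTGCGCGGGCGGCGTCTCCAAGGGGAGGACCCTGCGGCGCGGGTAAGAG
Col4a1, chr8:11312777-11313076, minus strand: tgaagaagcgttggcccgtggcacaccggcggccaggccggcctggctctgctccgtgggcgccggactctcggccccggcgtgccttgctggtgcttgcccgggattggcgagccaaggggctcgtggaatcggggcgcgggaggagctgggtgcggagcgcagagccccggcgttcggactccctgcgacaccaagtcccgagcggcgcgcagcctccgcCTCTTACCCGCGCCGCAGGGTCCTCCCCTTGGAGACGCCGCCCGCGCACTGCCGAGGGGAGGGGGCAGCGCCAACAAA
Overlap with the window of another gene on the opposite strand was found for 3212 of the 27025 genes in the promoter table (11.9%). No binding or chromatin data were used here, so nothing is read from these letters about how either gene is controlled.

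The other chains gave smaller or less precise values. Col4a3 was detected in all 25 control cells and in 27 of 28 fibrosis cells, with medians of 6.92 and 11.2 UMIs per 10000 and a ratio of 0.55 (0.14 to 0.97). Its head-to-head neighbour Col4a4, added after its values were seen, had 0.28 (-0.14 to 0.71). Col4a5 had 19 and 42 UMIs and a ratio of 1.08 (0.28 to 1.96). Among the other matrix genes, the heparan sulphate proteoglycan Agrn had 0.78 (0.14 to 1.46) and Spock2 0.59 (0.22 to 0.97). Sparc, a collagen-binding matrix protein, did not follow them in AT1 cells (0.06, -0.10 to 0.22), while its ratio in all other kept cells was 0.90 (0.84 to 0.97). Timp3, an inhibitor of matrix metalloproteinases, had 0.22 (-0.03 to 0.47).

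Among receptors and integrins, 15 of 29 listed genes had at least 10 UMIs in the AT1 cluster, and 3 were at least 2-fold higher and 0 at least 2-fold lower. Their median log2 ratio was 0.35 (0.22 over all members). In all other kept cells the median of the same genes was 0.51, so a higher level was not limited to AT1 cells. Itgb6, the beta chain of an integrin that activates latent TGF-beta, was the highest. It was detected in 11 of 25 control cells, never above 3 UMIs, and in 19 of 28 fibrosis cells, with up to 13 UMIs in a cell. Its sum was 17 UMIs in control and 55 in fibrosis, a log2 ratio of 1.62 (0.84 to 2.53), and 1.50 without the top cell of each library. With every cell of the AT1 cluster counted, members or not, it was 1.10. Over all members it was 1.18 (0.43 to 2.05), in all other kept cells 0.77 (0.38 to 1.18) and in AT2 cells 0.25 (-0.35 to 0.90). Itga3, a laminin-binding integrin chain, had 0.80 (0.11 to 1.55).

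Among secreted signals, 17 of 32 listed genes had at least 10 UMIs, with 2 at least 2-fold higher and 0 lower. The median was 0.06 (-0.20 over all members), against 0.47 in all other kept cells. Pdgfb, a growth factor for mesenchymal cells and pericytes, had 3 UMIs in 3 control cells and 25 UMIs in 14 fibrosis cells, none with more than 4. Its log2 ratio was 2.82 (1.3 to 5.38) in the AT1 cluster and 2.49 (1.00 to 5.05) over all members, against 0.51 (0.29 to 0.73) in all other kept cells and 0.04 (-0.83 to 0.96) in AT2 cells. The count in control is low, and the width of the interval reflects it. Pdgfb reached the floor of 10 UMIs only through its fibrosis UMIs. Sema3e, a guidance ligand for endothelial cells, had 0.59 (0.03 to 1.16) in the AT1 cluster and -0.06 (-0.57 to 0.47) over all members. Igfbp6, another binding protein of insulin-like growth factors, had -0.20 (-0.46 to 0.05).

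**Figure D3:**
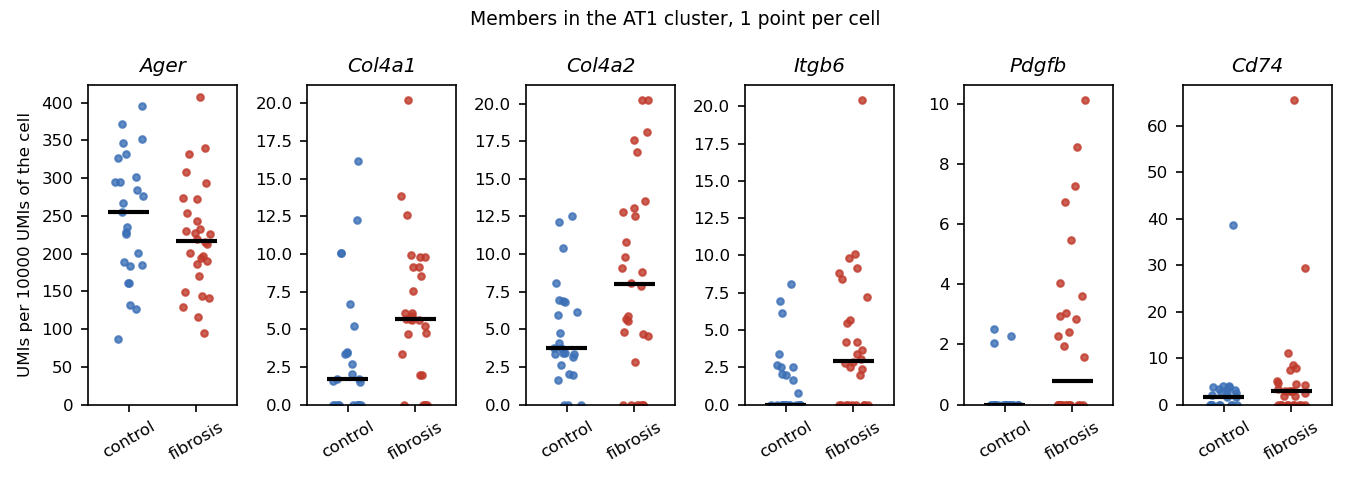
UMIs per 10000 UMIs of each cell for 6 genes in the AT1 cluster members, 25 control (blue) and 28 fibrosis (red) cells, with a black line at the median; horizontal scatter is random. Col4a1 medians are 1.71 and 5.69 and Itgb6 medians 0 and 2.93, with overlapping cells, and Cd74 is set by a few high cells.

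Other AT1 markers, 33 of 34 with at least 10 UMIs in the AT1 cluster, had a median log2 ratio of 0.11, with 0 genes at least 2-fold higher and 0 lower. Over all members their median was -0.24, and in all other kept cells it was 0.47. Ndnf, a secreted neuron-derived factor, had the highest ratio at 0.97 (0.58 to 1.37), with up to 33 UMIs in a fibrosis cell, followed by Fam189a2 at 0.92 (0.41 to 1.45). Scnn1g, a subunit of the epithelial sodium channel, had 0.65 (0.13 to 1.20), and Pdpn 0.46 (0.06 to 0.86). Emp2, a membrane protein abundant in AT1 cells, was lower at -0.26 (-0.48 to -0.04), as was Sec14l3 at -0.47 (-0.83 to -0.11), which is also on the list of ciliated cell markers. The intervals of Cav1 (-0.30, -0.61 to 0.01), Krt7 (-0.15, -0.41 to 0.10) and the tight junction protein Cldn18 (0.11, -0.15 to 0.38) held 0. Caveolae and flat-cell membrane genes had a median of -0.01 and junction genes of 0.19 in the AT1 cluster, and no gene of either list differed by 2-fold there. Over all members these medians were -0.21 and -0.05, and in all other kept cells 0.31 and 0.52. Of 11 ion and water transport genes, 1 was at least 2-fold higher and 1 at least 2-fold lower. Their median was 0.34 (0.28 over all members), against 0.51 in all other kept cells.

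The cytoskeleton list had a median of -0.06 (-0.16 over all members), with 0 of 26 genes past 2-fold. Actb, cytoplasmic beta-actin, was higher (0.55, 0.37 to 0.72) and Myl12a, a myosin light chain, lower (-0.43, -0.66 to -0.21). S100a6, a calcium-binding protein, had a ratio of 0.15 (0.02 to 0.28) in the AT1 cluster and 0.66 (0.55 to 0.77) over all members.

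Genes of the transitional state between AT2 and AT1 cells went both ways. Of 26, 13 had at least 10 UMIs in the AT1 cluster, with a median of -0.30 (0.07 over all members), 1 at least 2-fold higher (Itgb6) and 1 at least 2-fold lower. Krt19, a keratin of simple epithelia, was lower, at 1063 CPM in control and 634 in fibrosis (-0.74, -1.18 to -0.31). Among lineage and Hippo pathway genes the median was -0.05 (-0.15 over all members), with 1 of 19 at least 2-fold higher and 3 at least 2-fold lower. Hes1, a Notch target, had 0.82 (0.22 to 1.46), and Klf5, a Kruppel-like factor, had 10 and 2 UMIs.

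Several stress genes were lower in the fibrosis AT1 cells. The immediate-early and stress list had a median of -0.26 over 13 genes (-0.31 over all members), with 0 past 2-fold in either direction. In all other kept cells the median of the same 13 genes was -0.24, so a lower level was not limited to AT1 cells. Hspa8, a constitutive chaperone, had a median of 12.6 UMIs per 10000 in control cells and 3.91 in fibrosis cells, and a ratio of -0.98 (-1.39 to -0.59). Its ratio was -0.74 in all other kept cells, -0.38 in AT2 cells and -0.42 in T cells, so a lower level was found in each of these classes. Hspb1 had -0.59 (-1.15 to -0.04), Ier3 -0.45 (-0.74 to -0.16) and Hsp90aa1 -0.36 (-0.69 to -0.03). Among 16 antioxidant genes (median -0.08, and -0.32 over all members, 0 at least 2-fold higher and 1 lower), the autophagy receptor Sqstm1 had -1.16 (-2.17 to -0.26), the mitochondrial superoxide dismutase Sod2 -0.99 (-1.91 to -0.15) and Prdx6, a peroxiredoxin, -0.17 (-0.30 to -0.03). The 11 glycolysis and hypoxia genes had a median of -0.34 (-0.29 over all members), none past 2-fold, and Gapdh had -0.38 (-0.97 to 0.20).

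**Figure D4:**
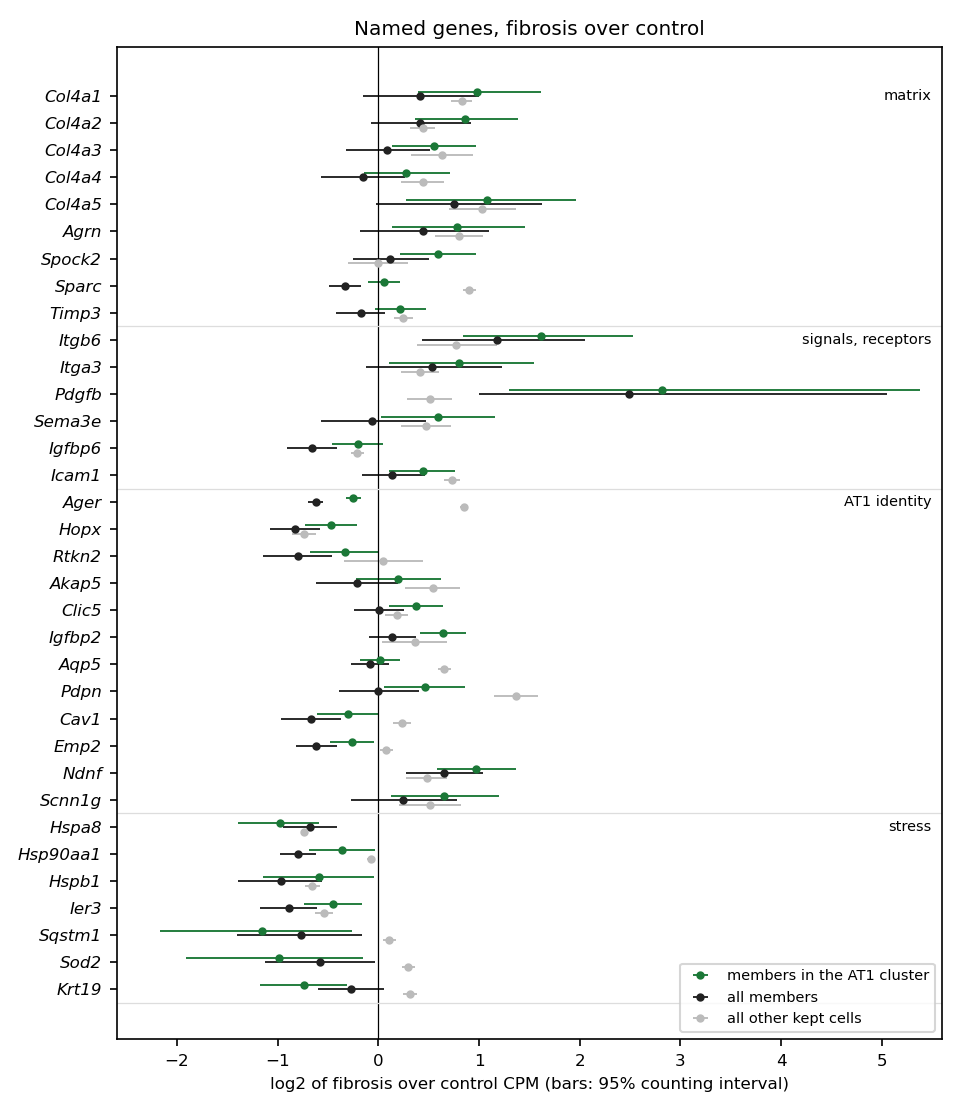
Log2 ratio of fibrosis over control, with 95% counting intervals, for named genes in the AT1 cluster members (green), all 75 members (black) and all other kept cells (grey). Col4a1, Itgb6 and Pdgfb are higher in the AT1 cluster at 0.98, 1.62 and 2.82, the last from 3 control UMIs. Ager, a gene that the rule used, lies below 0 in AT1 cells and above it in all other kept cells (0.85).

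Antigen presentation genes gave a high value that rested on few cells. Of 11 MHC and interferon genes with at least 10 UMIs, 4 were at least 2-fold higher and 1 at least 2-fold lower, with a median of 0.46 (0.49 over all members). In the AT1 cluster, Cd74, the invariant chain, had 44 UMIs in control and 127 in fibrosis (log2 ratio 1.47, 0.98 to 2.01), H2-Aa 6 and 51, H2-Ab1 5 and 43, and H2-Eb1 5 and 35. Over these 4 class II genes, 1 fibrosis cell held 166 of 256 UMIs (64.8%), and 1 control cell held 30 of 60 (50.0%). The median was 1 class II UMI per cell in each library. The same fibrosis cell held 15 UMIs of the macrophage complement genes C1q. The cell with the next most class II UMIs (37) had 0 C1q UMIs, and another with 17 C1q UMIs had 13 of class II. The 8 macrophage markers summed to 13 UMIs in control and 58 in fibrosis (115 and 497 CPM) in the AT1 cluster, against 729.5 and 1541 CPM in T cells. Marco and Plet1 were at 0 in both libraries of the AT1 cluster, and the 3 markers with at least 10 UMIs (C1qa, Ctss and Chil3) were each at least 2-fold higher in fibrosis. In T cells, Cd74 went from 280.1 to 987 CPM. The part of free RNA and of captured macrophage material was not tested. B2m, the light chain of class I molecules, had 0.46 (0.21 to 0.71) and was spread over 24 control and 27 fibrosis cells.

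The inflammation list had only 5 of 19 genes with at least 10 UMIs in the AT1 cluster, 2 of them at least 2-fold higher and 0 lower, with a median of 0.44 (1.40 over all members). Icam1, an adhesion molecule that AT1 cells carry, had 0.44 (0.11 to 0.76), against 0.68 in AT2 cells and 0.73 in all other kept cells. Nfkbia, an inhibitor of NF-kappa-B, had -0.96 (-1.67 to -0.30). Retnla had 3 and 21 UMIs and Chil3 6 and 22 in AT1 cells, while their ratios in all other kept cells were 5.70 and 1.80.

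The list of AT2 and surfactant genes had a median of 1.69 over all 75 members (16 genes, 10 of them at least 2-fold higher) and of 0.74 in the AT1 cluster (9 genes, 3 of them at least 2-fold higher). These 3 (Scd1, Cxcl15 and Fabp5) do not encode surfactant proteins, and were named after their values were seen. In all other kept cells the medians of the same 16 and 9 genes were 0.73 and 0.71, so a higher level was not limited to AT1 cells. In AT2 cells they were 0.17 and 0.09. In the AT1 cluster the surfactant protein genes Sftpb (0.56, -0.72 to 1.98), Sftpd (-0.05, -2.17 to 2.07) and Sftpa1 (-0.12, -1.08 to 0.84) lay below the list's median. With every cell of the AT1 cluster counted, members or not, the list's median was -1.48. That set puts back 3 control and 2 fibrosis cells that the rule left out for more than 3 AT2 UMIs. Sftpc had 262 and 1441 UMIs over all members (log2 ratio 1.93) and 141 and 156 in the AT1 cluster (0.10, -0.24 to 0.44), and a ratio of -2.53 with every cell of that cluster counted. In 1 of the 4 fibrosis members of the AT2 clusters alone it had 813 UMIs. The AT1 cluster level, 1249 and 1338 CPM, was below that of T cells, 1376 and 5749.5. Scd1, a lipid desaturase, had 2 and 14 UMIs in the AT1 cluster, and Lyz2 had 41 and 71, with 23 of the latter in 1 cell. Among airway genes, Scgb3a1 had 0 and 839 UMIs over all members and 0 and 3 in the AT1 cluster. Scgb1a1 had a ratio of 0.21 (0.19 to 0.23) over all members and -0.58 (-0.79 to -0.38) in the AT1 cluster. It stood at 4366 and 2915 CPM in the AT1 cluster, and the 7 club markers together at 4596 and 3172, against 5936 and 5402 in T cells. The 7 ciliated markers summed to 375 and 262 UMIs in the AT1 cluster (3321 and 2246 CPM), against 90.7 and 81.4 CPM in T cells. Of these, 3 had a UMI in control and 4 in fibrosis, and nearly all the UMIs came from Tppp3 (224 and 146) and Sec14l3 (150 and 112), while Foxj1, Tmem212 and 1110017D15Rik had none in either library. The part of airway cell material in these values was not tested.

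The highest and lowest single genes of the AT1 cluster were partly library-wide. The noncoding AY036118 had 9 and 73 UMIs (log2 ratio 2.91), and its ratio in all other kept cells was 3.52. Ppp2cb, a catalytic subunit of protein phosphatase 2A, had 5 and 29 UMIs in 5 and 20 cells (2.38, 1.10 to 4.22), against 0.39 in all other kept cells. At the other end, Tecr, an enzyme of long-chain fatty acid synthesis, had 28 and 6 UMIs (-2.18, -3.83 to -0.97), Maf1, a repressor of RNA polymerase III, 27 and 8 (-1.74, -3.15 to -0.62), and Arid5b 29 and 9 (-1.68, -3.00 to -0.62). Their ratios in all other kept cells were -0.16, -0.45 and 0.01.

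**Figure D5:**
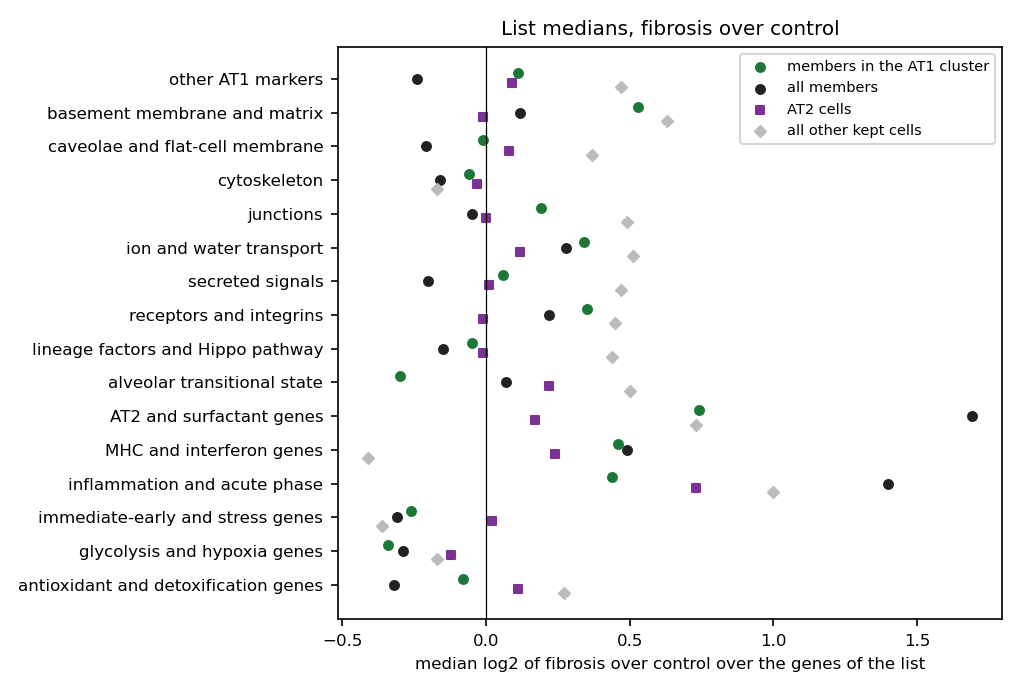
Median log2 ratio of fibrosis over control over the genes of each of 16 lists with at least 10 UMIs, for AT1 cluster members (green), all members (black), AT2 cells (purple squares) and all other kept cells (grey diamonds). The matrix list stands at 0.53 in the AT1 cluster and 0.63 in other cells against -0.01 in AT2 cells. The AT2 and surfactant list stands at 1.69 over all members against 0.74 in the AT1 cluster and 0.73 in other cells.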

How the data were processed

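Libraries were made with the 10x Genomics 3′ V2 kit, per the labels' protocols, and the submitters' processing notes name bcl2fastq, Cell Ranger 1.3 and the mm10 build. The deposited values are raw UMI counts per gene and cell, 1 matrix per library. Kept cells held 35708937 UMIs in control and 37222493 in fibrosis. Members, lists and alternatives were chosen with earlier results of these data known.

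UMIs were summed over cells and scaled to 1000000 per group (CPM). Log2 ratios used a pseudocount of 0.5 UMI, on genes with at least 10 UMIs over both libraries. Their exact conditional intervals treat UMIs as independent and leave out variation between cells and mice. The intervals were checked on simulated counts that also treated UMIs as independent, so the check does not cover that variation. Clusters came from scanpy 1.11.5 (2000 variable genes, 30 principal components, 15 neighbours, Leiden resolution 1). Doublets were scored with scrublet and kept: its threshold marked 0 control and 159 fibrosis cells (2.29%). B and T cells came from marker gates. Positions are from GENCODE M21 (27645 of 27998 identifiers matched), and promoters from RefSeq (18 of 24 matrix genes matched). Named genes were the 7 rule genes, list members with the largest ratios or most UMIs, the extreme genes overall and against other cells, and the leading AT1 over AT2 genes; the rule was repeated on the AT1 cluster after the data were seen. Some results are not reported here.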

Additional observations from a re-analysis of the deposited data

Results flagged for a closer look

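For 9 of 72 named genes checked, the log2 ratio of fibrosis over control had intervals on opposite sides of 0 in AT1 and all other kept cells. In AT1 cells this held both over all members and in the AT1 cluster. Some genes were named because their interval left out 0 or their AT1 ratio lay far from that in other cells. The count is therefore partly set by that choice, and no count over all genes was made. The difference between the cell classes was not tested, because each group is 1 library. Ager was -0.62 over all members and -0.25 in the AT1 cluster, against 0.85 in other cells. The rule used Ager to choose the members, so its values describe the chosen cells and support nothing further. Emp2 was -0.62 and -0.26, against 0.08. Sec14l3 was -0.70 and -0.47, against 0.37. Prdx6 was -0.50 and -0.17, against 0.11. Sqstm1 was -0.77 and -1.16, against 0.11, and Sod2 was -0.58 and -0.99, against 0.30. Tmem243 was -1.41 and -2.28, against 0.52, from 16 and 3 UMIs in the AT1 cluster. In the other direction, S100a6 was 0.66 and 0.15, against -0.93, and Actb was 0.27 and 0.55, against -0.24. Other cells are a mixture whose makeup differed between the libraries (AT2 cells were 11.3% of kept cells in control and 21.1% in fibrosis), and the part of that mixture in these values was not tested.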

How the results depend on the processing

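No paired analysis was possible because each group is 1 library, with a single shared replicate number. Of the alternatives for shares, gene counts and list medians, 345 values stayed within the limits (for a share or median its interval, for a count 1.5 times), 53 moved beyond them and 2 reversed, a reversal being a sign change of a value past 2-fold; the causes were not tested. The fibrosis minus control difference in the AT1 share of kept cells (0.19 percentage points) ranged from 0.076 to 0.29 over the alternatives run, with fibrosis above control in each, while the shares themselves ranged from 0.311 to 0.548% in control and from 0.403 to 0.835% in fibrosis. The fibrosis minus control difference in the share of alveolar epithelial cells was -0.72 percentage points, and -2.59 with at most 5% mt- UMIs.

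Genes at least 2-fold higher numbered 471, and 276 with at most 1 AT2 UMI, 303 without members in airway clusters, 165 with cells thinned to 2000 UMIs, 287 without the 5 deepest cells, 1004 with a floor of 5 UMIs and 93 with a floor of 30 UMIs. Genes at least 2-fold lower numbered 517, and 268 in the AT1 cluster (330 without the top cell of each gene), 291 without members in airway clusters, 344 over all cells of the AT1 cluster, 185 thinned, 778 with each cell weighing the same, 800 less the ratio in other cells, 1081 with a floor of 5 UMIs and 90 with 30.

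The median log2 ratio of other AT1 markers (-0.24) was -0.52 with at most 5% mt- UMIs, -0.57 with at least 5 AT1 genes, 0.15 with at most 1 AT2 UMI, 0.11 in the AT1 cluster (0.15 without top cells), 0.04 without airway members, 0.13 over all cells of the AT1 cluster, -0.06 with equal cell weights and -0.83 less the ratio in other cells. In the order at least 5 AT1 genes, at most 1 AT2 UMI, less the ratio in other cells, and AT1 cluster without top cells, the medians were -0.22, 0.50, -0.42 and 0.53 for basement membrane and matrix (0.12), -0.54, 0.11, -0.67 and 0.04 for caveolae and flat-cell membrane (-0.21), and -0.30, 0.20, -0.73 and 0.30 for junctions (-0.05). Matrix was 0.53 in the AT1 cluster and 0.44 without airway members. Junctions were 0.19 in both of these, 0.08 over all cells of the AT1 cluster, 0.12 with equal weights and 0.08 less the median of all genes. With at least 5 AT1 genes, secreted signals (-0.20) were -0.64, lineage and Hippo genes (-0.15) -0.57 and AT2 and surfactant genes (1.69) 2.37. Less the ratio in other cells, receptors and integrins (0.22) were -0.30 and transitional genes (0.07) -0.33; transitional genes were -0.30 in the AT1 cluster and -0.27 over all its cells. Stress genes (-0.31) were -0.68 thinned. AT2 and surfactant genes were 2.64 without airway members. They reversed to -1.48 over all cells of the AT1 cluster, a set that includes cells the rule left out for their AT2 UMIs. The inflammation list (1.40) reversed to -0.17 without airway members.

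Of the named genes, Scd1 (-0.05) and Sftpc (-2.53) reversed over all cells of the AT1 cluster, including those the rule left out for AT2 UMIs. Retnla (-2.51) reversed less the ratio in other cells. Beyond their intervals moved 327 gene values, and 1038 did not. Depth limits genes with few UMIs: Pdgfb had 3 in control.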
